A study of Mus musculus with 12 samples.

Results

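Microsomal cytochrome P450 enzymes of the Cyp4 family add a hydroxyl group to the last (omega) carbon of a fatty acid, and 10 of their genes were followed in the livers of fasted mice with and without hepatic Cpt2, which mitochondria need to burn long-chain fatty acids. The genes were chosen by name, as the rows of the deposited count table called Cyp4a10, Cyp4a14, Cyp4a31, Cyp4a32, Cyp4a12a, Cyp4a12b, Cyp4f13, Cyp4f14, Cyp4f15 and Cyp4v3. All 10 were found among the 56748 genes of the table, 6 of them Cyp4a genes, 3 Cyp4f genes and 1 of the Cyp4v family. RNA of whole liver was sequenced in 12 samples taken after a 24 h fast, 4 for each of 3 genotypes. The control livers, called WT here, carried floxed alleles of Cpt1a, Cpt1b and Cpt2 (triple floxed). SKO livers lacked Cpt2, the carnitine palmitoyltransferase of the inner mitochondrial membrane, and DKO livers lacked both Cpt2 and Atf3, a stress-induced transcription factor. Both deletions were made with an albumin-Cre transgene, which is active in hepatocytes and in the precursors they share with bile duct cells, so that macrophages, endothelial and stellate cells keep the gene. The controls thus carried floxed Cpt1a and Cpt1b alleles, which the labels of the KO livers do not name. The labels give no age, litter or batch.

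Omega-hydroxylation is the first step of a side route of fatty acid breakdown. The alcohol is made into an acid by alcohol and aldehyde dehydrogenases, and the resulting dicarboxylic acid is activated and shortened in peroxisomes. The route is minor in the fed liver and gains weight in fasting, in diabetes and where mitochondrial beta-oxidation is blocked, and dicarboxylic acids in urine are a classic sign of defects of mitochondrial fatty acid oxidation. Cyp4a10 and Cyp4a14 are textbook target genes of PPARα, the nuclear receptor for fatty acids. Cyp4a12a and Cyp4a12b, which also make the eicosanoid 20-HETE, are known as male-predominant genes in mice. Cyp4f enzymes act on leukotriene B4 and on long-chain fatty acids, and Cyp4v3 is the mouse counterpart of human CYP4V2, which omega-hydroxylates medium-chain fatty acids.

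The Cyp4a genes lie side by side on chromosome 4, from 115156243 to 115478799 (323 kb) in the GRCm39 coordinates of the count table, and the Cyp4f genes lie on chromosome 17 from 32904601 to 33166376 (262 kb). Cyp4v3 stands alone on chromosome 8 from 45757981 to 45786253. Cpt2 is also on chromosome 4, at a distance of 7.38 Mb from the Cyp4a genes. The enzymes share one short stretch that is shown here because it carries the cysteine that holds the haem iron. The 30 bases (10 codons) that code for this haem-binding loop are written 5′ to 3′ from the longest protein-coding transcript of each gene in GENCODE M21 (build GRCm38), and capitals mark bases that differ from Cyp4a10.
Cyp4a10: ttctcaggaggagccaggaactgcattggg
Cyp4a14: ttctcaggaggaTcAaggaactgcattggg
Cyp4a31: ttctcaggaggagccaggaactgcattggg
Cyp4a32: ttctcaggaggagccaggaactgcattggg
Cyp4a12a: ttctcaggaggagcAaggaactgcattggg
Cyp4a12b: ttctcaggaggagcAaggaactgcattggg
Cyp4f13: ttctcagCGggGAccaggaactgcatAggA
Cyp4f14: ttctcGgCGggaCccaggaactgcatAggA
Cyp4f15: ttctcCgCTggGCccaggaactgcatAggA
Cyp4v3: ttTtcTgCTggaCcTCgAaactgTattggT
Cyp4a31 and Cyp4a32 are identical to Cyp4a10 over these bases, Cyp4a12a and Cyp4a12b differ from it at 1 base and Cyp4a14 at 2. The Cyp4f genes differ at 6, 6 and 7 bases and Cyp4v3 at 10. The likeness goes on beyond the loop. The coding sequence of Cyp4a12b was 98.5% identical to that of Cyp4a12a, and those of Cyp4a32 and Cyp4a31 were 97.2% and 96.6% identical to Cyp4a10. Cyp4a14 stood further off, at 77.6% identity to Cyp4a10, and Cyp4f14 and Cyp4f15 were 82.1% identical to each other. Of all windows of 100 bases in the Cyp4a12a transcript, 35.8% stood unchanged in the Cyp4a12b transcript, and 36.2% the other way round. For Cyp4a32 the share found unchanged in another gene was 20.1%, with Cyp4a10 and Cyp4a31 as the partners, for Cyp4a10 12.7% and for Cyp4a31 8.22%. No window of Cyp4a14, Cyp4f13, Cyp4f14 or Cyp4f15 was found in another gene. Since the program that counted the reads is not given in the sources used here, the split of reads within the Cyp4a10, Cyp4a31 and Cyp4a32 group and within the Cyp4a12 pair is uncertain. In Cyp4v3, 5.77% of the windows also stood in the gene model Gm45753.

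RefSeq promoter sequence (build GRCm38.p6) was at hand for 5 of the 10 genes, namely Cyp4a32, Cyp4f13, Cyp4f14, Cyp4f15 and Cyp4v3. The 250 bases before the start are shown for Cyp4a32 (chr4:115600688-115600937, plus strand) and for the first of the listed starts of Cyp4f14 (chr17:32917357-32917606, minus strand), which had the highest and the lowest fold change in SKO livers among these 5 genes. Capitals mark the best match, on either strand, to AGGTCANAGGTCA, the direct repeat, with 1 base between its units, that PPARα binds together with RXR.
Cyp4a32: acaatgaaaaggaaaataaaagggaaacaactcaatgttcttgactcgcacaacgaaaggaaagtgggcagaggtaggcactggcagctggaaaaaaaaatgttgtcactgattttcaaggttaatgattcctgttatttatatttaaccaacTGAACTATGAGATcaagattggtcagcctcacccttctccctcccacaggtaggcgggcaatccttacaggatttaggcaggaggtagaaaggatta
Cyp4f14: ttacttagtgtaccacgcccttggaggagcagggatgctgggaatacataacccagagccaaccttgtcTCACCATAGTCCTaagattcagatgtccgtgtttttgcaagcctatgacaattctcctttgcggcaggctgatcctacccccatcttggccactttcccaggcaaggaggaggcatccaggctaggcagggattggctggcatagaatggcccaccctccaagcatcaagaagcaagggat
The marked match of Cyp4a32 has 3 mismatches over the 12 bases of the repeat and that of Cyp4f14 has 4. A match with at most 3 mismatches stood in 21.3% of all 32851 promoter entries and one with at most 4 in 74.5%, so the marked letters do not set these genes apart. A match with at most 2 mismatches, which 3.24% of the entries held, was in the window of none of the 5 genes.

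The total count on genes was 14710304 to 20030055 per liver (median 17908507), and levels are given as CPM, counts scaled to a common library size by TMM over the 12 livers. A count of 0 allows up to 3 counts, or 0.145 to 0.196 CPM, which covers counting error only. Nothing in the labels says more of the 4 livers of a genotype than that they are separate samples, so p-values measure the spread between these livers. Cpt2 was at 199, 252, 239 and 252 CPM in WT livers, 111, 157, 109 and 126 in SKO livers and 119, 123, 127 and 102 in DKO livers, and every KO liver was below every WT liver. Atf3 was at 1.77, 1.21, 1.11 and 2.16 CPM in WT livers, 24.5, 53.5, 29.3 and 14.5 in SKO livers and 7.93, 10.8, 13.7 and 0.271 in DKO livers. The table holds no counts per exon, so reads on the deleted part of either gene cannot be told from reads on the rest. A pair of livers stood apart from the others. Xist had 18063 counts in SKO replicate 3 and 20855 in DKO replicate 4, whose sums over 4 Y-linked genes were 2 and 0, and each of the other 10 livers had at most 19 counts on Xist and at least 2741 on the Y-linked genes. The study describes these livers as male. DKO replicate 4 also had the lowest Atf3 of all 12 livers. Results are given with and without these livers where they decide a value.

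Compared per transcript length, in FPKM as deposited, Cyp4a14 and Cyp4a10 were far above the other genes in every genotype. In WT livers Cyp4a14 was at 3114 ± 269 FPKM (mean ± SD, n = 4) and Cyp4a10 at 1666 ± 159. This put them at places 21 and 42 of all genes of the table by mean FPKM. The next gene, Cyp4v3, was at 102 ± 13.2 FPKM, followed by Cyp4f15 (93.9 ± 12.3), Cyp4a12a (69.9 ± 9.95), Cyp4a32 (66.9 ± 25.7), Cyp4a12b (42.7 ± 6.93), Cyp4f14 (38.6 ± 7.37), Cyp4a31 (29.2 ± 5.38) and Cyp4f13 (22 ± 3.23). Cyp4a14 was above Cyp4a10, and Cyp4a10 above Cyp4v3, in every WT liver, while from Cyp4v3 downwards the ranges of neighbours in this order overlapped. In SKO livers the first places were again Cyp4a14 (5481 ± 587 FPKM, place 11 of all genes) and Cyp4a10 (2488 ± 204, place 20). Cyp4a32 (169 ± 37.4) now held the third place, and Cyp4f14 (8.00 ± 1.64) the last. The ranges of Cyp4a32, Cyp4a12a, Cyp4v3, Cyp4a12b, Cyp4f15 and Cyp4a31 overlapped from one to the next, whereas Cyp4f13 (16.8 ± 1.98) was below every value of Cyp4a31 and Cyp4f14 below every value of Cyp4f13. In DKO livers Cyp4a14 was at 4443 ± 1669 FPKM, Cyp4a10 at 2109 ± 761 and Cyp4a32 at 117 ± 56.3, and the ranges of all neighbours overlapped except those of Cyp4a10 and Cyp4a32. Counted together, the 10 genes took 1.08 to 1.19% of all counts in WT livers and 1.85 to 2.23% in SKO livers. In DKO livers they took 2.13, 2.18, 1.87 and 0.806%, the last value being that of replicate 4.

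**Figure D1:**
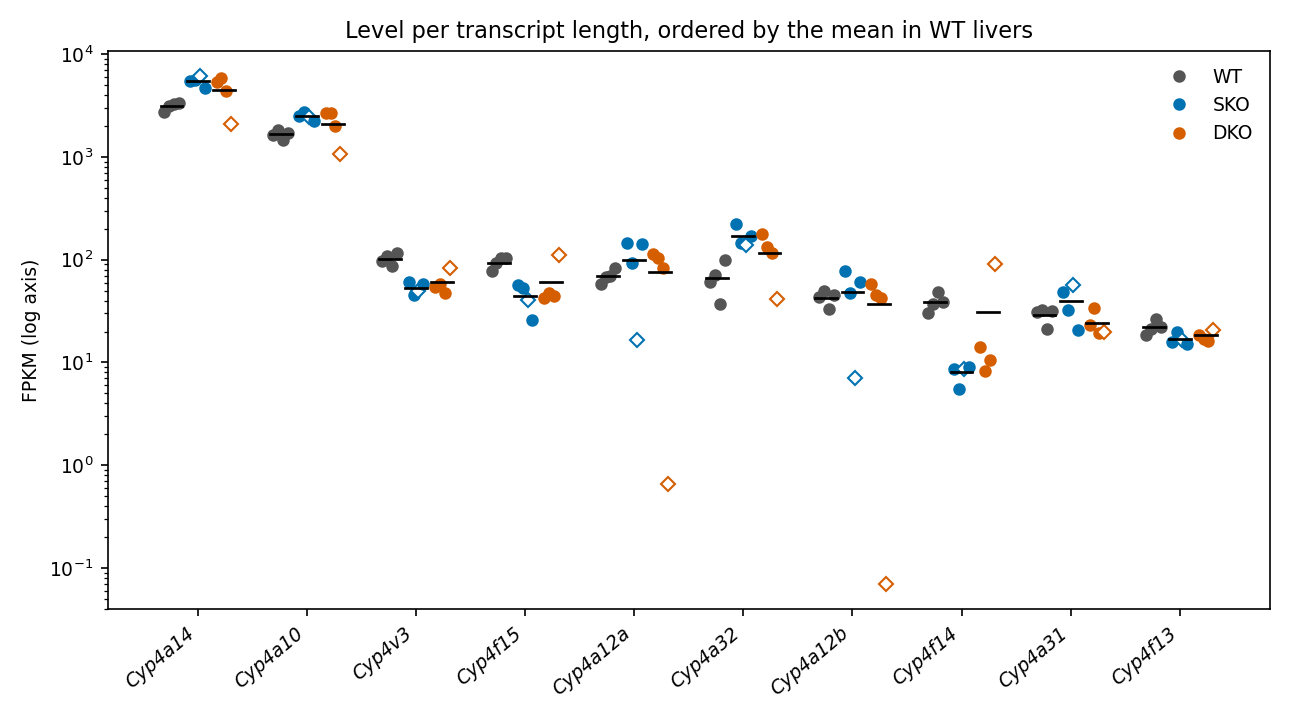
FPKM of the 10 Cyp4 genes (log axis) in each liver, coloured by genotype and ordered by the mean in WT livers, with black bars for genotype means (n = 4) and open diamonds for the 2 livers with Xist counts, SKO replicate 3 and DKO replicate 4. Cyp4a14 and Cyp4a10 lie at or above 1069.6 FPKM in every liver, and the highest value of any other gene is 222 FPKM, that of Cyp4a32 in an SKO liver.

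The PPARα targets Cyp4a10 and Cyp4a14 were both higher in SKO than in WT livers, by 1.51-fold and 1.78-fold, and no SKO liver overlapped with a WT liver. In bulk RNA such as this, a change in the number of cells of a type and one in RNA per cell cannot be told apart. Cyp4a14 (ENSMUSG00000028715, chromosome 4 from 115343397 to 115353339, minus strand) was at 6842, 7819, 8103 and 8367 CPM in WT livers. It was at 13795, 13773, 15375 and 11889 CPM in SKO livers. The difference passed the test (log2 fold change 0.83 with a standard error of 0.15, adjusted p = 0.00131, quasi-likelihood test of edgeR, adjusted by Benjamini and Hochberg over all genes tested, which is the test of every adjusted p given here). Log2 fold changes are given ± their standard error. In DKO replicates 1 to 4 it was at 13572, 14886, 11255 and 5316 CPM. The first 3 of these values were above every WT liver, and replicate 4 was below every WT liver. With all 4 DKO livers the difference from WT was not past the threshold (log2 fold change 0.54 ± 0.30, adjusted p = 0.261), and without replicate 4 it was (log2 fold change 0.78 ± 0.13, adjusted p = 0.0011).

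Cyp4a10 (ENSMUSG00000066072, chromosome 4 from 115375461 to 115390846, plus strand) followed the same course at a lower level. Its CPM was 3344, 3739, 2945 and 3478 in WT and 5050.0, 5498, 5039 and 4589.7 in SKO livers (SKO against WT, log2 fold change 0.59 ± 0.14, adjusted p = 0.00713). The DKO livers were at 5489.8, 5471, 4188 and 2176 CPM. Here too the first 3 DKO livers exceeded every WT liver and the last was the lowest of all 12. The test gave log2 fold change 0.37 ± 0.28, adjusted p = 0.409 for DKO against WT with all livers and log2 fold change 0.59 ± 0.14, adjusted p = 0.0067 without replicate 4. In edgeR's fit with all 12 livers in place of the 8 of the pair, the adjusted p of Cyp4a10 in SKO against WT was 0.0983, and it was the single call among the members that this setting lost. The ratio of Cyp4a14 to Cyp4a10, in FPKM, was between 1.66 and 2.23 in WT livers, 2.03 and 2.47 in SKO livers and 1.98 and 2.21 in DKO livers, so that the genes kept their order in each liver, DKO replicate 4 included.

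Of the close relatives of Cyp4a10, Cyp4a32 was called higher in SKO livers and Cyp4a31 was not, and the difference between their changes was not tested. The Cyp4a31 value depended on single SKO livers. Cyp4a32 (ENSMUSG00000063929, chromosome 4 from 115458166 to 115478799, plus strand) was at 89.5, 104, 54.9 and 147 CPM in WT and 327, 212, 208 and 255 in SKO livers, with no overlap. It rose 2.56-fold (log2 fold change 1.36 ± 0.26, adjusted p = 0.00207), the largest rise among the 10 genes. In DKO livers it was at 263, 198, 177 and 61.5 CPM, with replicate 4 inside the WT range, and the difference from WT was 0.83 ± 0.41 (adjusted p = 0.211) with and 1.11 ± 0.27 (adjusted p = 0.00732) without that liver. Cyp4a31 (ENSMUSG00000028712, chromosome 4 from 115420846 to 115436212, plus strand) was at 75.2, 78.9, 50.8 and 76.7 CPM in WT livers, 118, 77.4, 137 and 50.1 in SKO livers and 56.8, 83.2, 48.0 and 48.0 in DKO livers. All 3 genotypes overlapped, and the SKO livers covered the widest range. Neither difference from WT passed the test (log2 fold change 0.46 ± 0.27, adjusted p = 0.225 for SKO and log2 fold change −0.25 ± 0.21, adjusted p = 0.465 for DKO). Without SKO replicate 4 Cyp4a31 was called higher in SKO livers (log2 fold change 0.68, adjusted p = 0.0354), and without SKO replicate 3 its log2 fold change was 0.24 (adjusted p = 0.514). The FPKM ratio of Cyp4a10 to Cyp4a32 was 17.3 to 39.1 in WT and 11.3 to 18.9 in SKO livers. As stated above, reads may be shared among these genes, and the part of such sharing in the rise of Cyp4a32 was not tested.

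**Figure D2:**
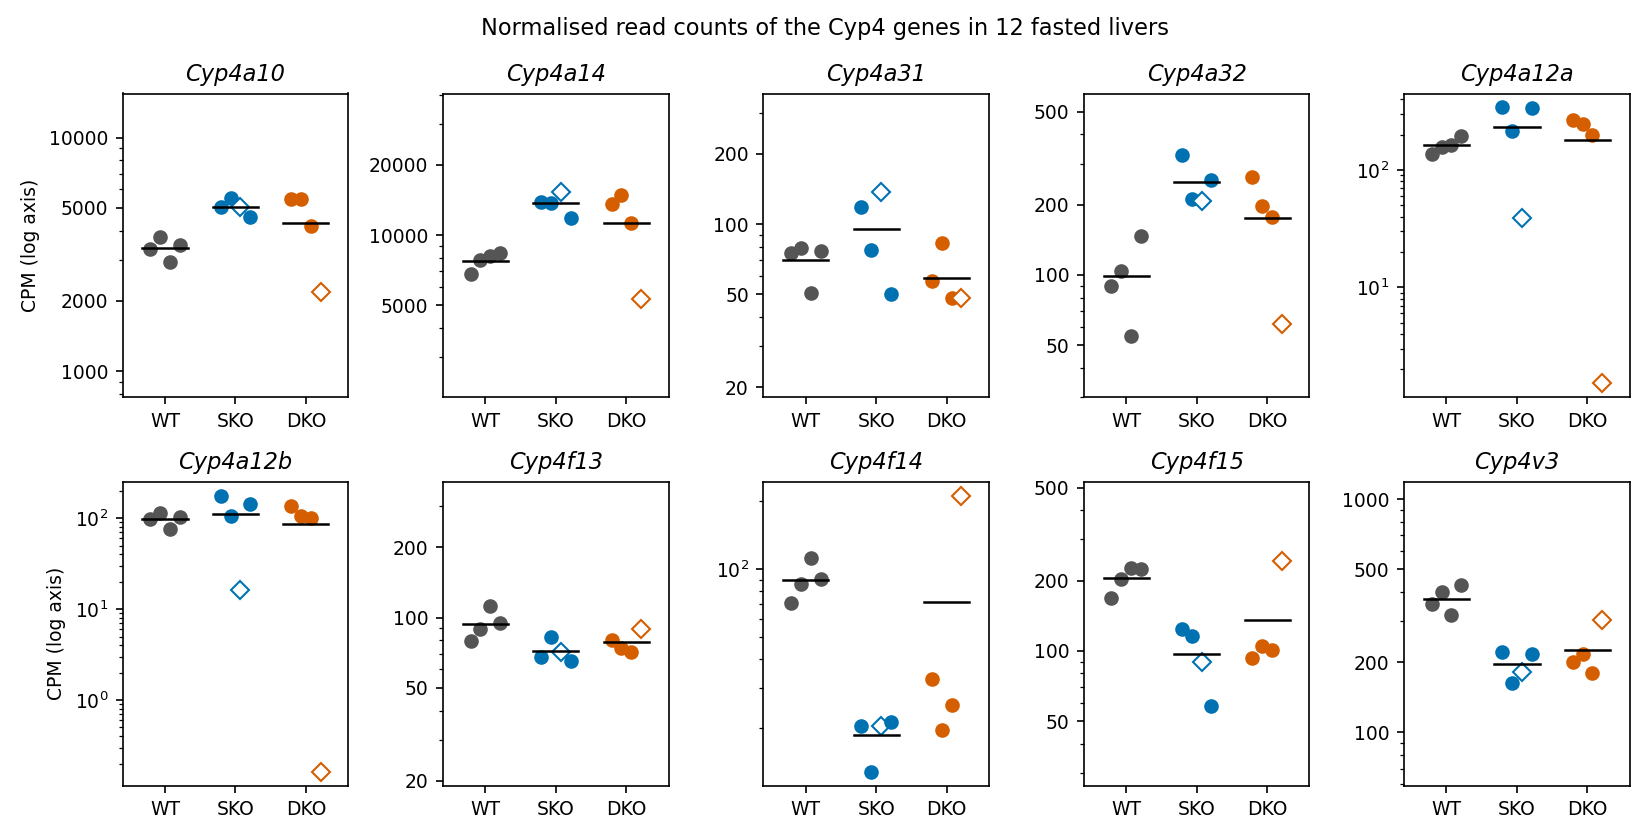
Normalised read counts (CPM, log axis, scaled separately for each gene) of the 10 Cyp4 genes in each of 12 livers, by genotype, with black bars for genotype means (n = 4) and open diamonds for the livers with Xist counts. The SKO livers lie above all WT livers for Cyp4a10, Cyp4a14 and Cyp4a32 and below them for Cyp4f14, Cyp4f15 and Cyp4v3, and the open DKO diamond lies apart from the other DKO livers in most panels.

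For the Cyp4a12 genes the livers with Xist counts decided the result. Cyp4a12a (ENSMUSG00000066071, chromosome 4 from 115156243 to 115190012, plus strand) had 2624, 2481, 2493 and 3481 counts in WT livers, 5340, 4209, 750 and 6016 in SKO livers and 5514, 4087, 3852 and 28 in DKO livers, or 137, 158, 163 and 193 CPM in WT livers, 342, 213, 38.9 and 336 in SKO livers and 267, 248, 199 and 1.52 in DKO livers. The lowest value of each KO genotype was that of the liver with Xist counts, and the remaining KO livers were above every WT liver. With all livers the differences were far from the threshold (log2 fold change 0.54 ± 0.47, adjusted p = 0.426 for SKO and log2 fold change 0.15 ± 0.91, adjusted p = 0.931 for DKO against WT). Without SKO replicate 3 the log2 fold change of SKO against WT was 0.89 (adjusted p = 0.00337). Without DKO replicate 4 that of DKO against WT was 0.56 ± 0.14 (adjusted p = 0.00995). Cyp4a12b (ENSMUSG00000078597, chromosome 4 from 115268821 to 115296231, plus strand) had 1907, 1789, 1160 and 1883 counts in WT livers, 2765, 2113, 311 and 2547 in SKO livers and 2800, 1761, 1954 and 3 in DKO livers, and the 3 counts in DKO replicate 4 are at the limit that a count of 0 allows. It was not called with all livers (adjusted p = 0.807 for SKO and 0.921 for DKO against WT). Without SKO replicate 3 it was called higher in SKO livers (log2 fold change 0.55, adjusted p = 0.0423), and without DKO replicate 4 the change in DKO livers was 0.23 (adjusted p = 0.277).

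A list of 11 other male-biased liver genes, such as the anion transporter gene Slco1a1 and the oxysterol hydroxylase gene Cyp7b1, was counted beside the Cyp4a12 pair. Summed over the list, WT livers were at 4475 to 6147 CPM, SKO replicates 1 to 4 at 3228, 1781, 424 and 3526 CPM and DKO replicates 1 to 4 at 4062, 3185, 2661 and 510.2 CPM. The sum of 13 female-biased genes, among them the P450 genes Cyp2a4 and Cyp2b9, was 773 CPM in SKO replicate 3 and 2032 CPM in DKO replicate 4 and between 13 and 75.4 CPM in the other 10 livers. Both livers with Xist counts thus had the lowest male-biased sums and the highest female-biased ones. In the livers without Xist counts the male-biased sums of both KO genotypes were below the WT range, while the Cyp4a12a values of the same livers were above the WT range of that gene. Cyp4a12b was at 99.3, 114, 75.8 and 104 CPM in WT livers, 177, 107, 16.1 and 142 in SKO livers and 135, 107, 101 and 0.162 in DKO livers, so that SKO replicate 2 and DKO replicates 2 and 3 lay within its WT range. Of 10 male-biased genes tested, 6 were lower and 0 higher in SKO than in WT livers (3 to 9 lower over the alternative settings), among them Slco1a1 (log2 fold change −2.60, adjusted p = 0.000308) and Cyp7b1 (−1.87, adjusted p = 0.00987). Over all genes tested, 15.4% were called lower and 16.7% higher in this comparison. The part of sex in the values of DKO replicate 4 and SKO replicate 3 was not tested, since each genotype holds 1 such liver or none.

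**Figure D3:**
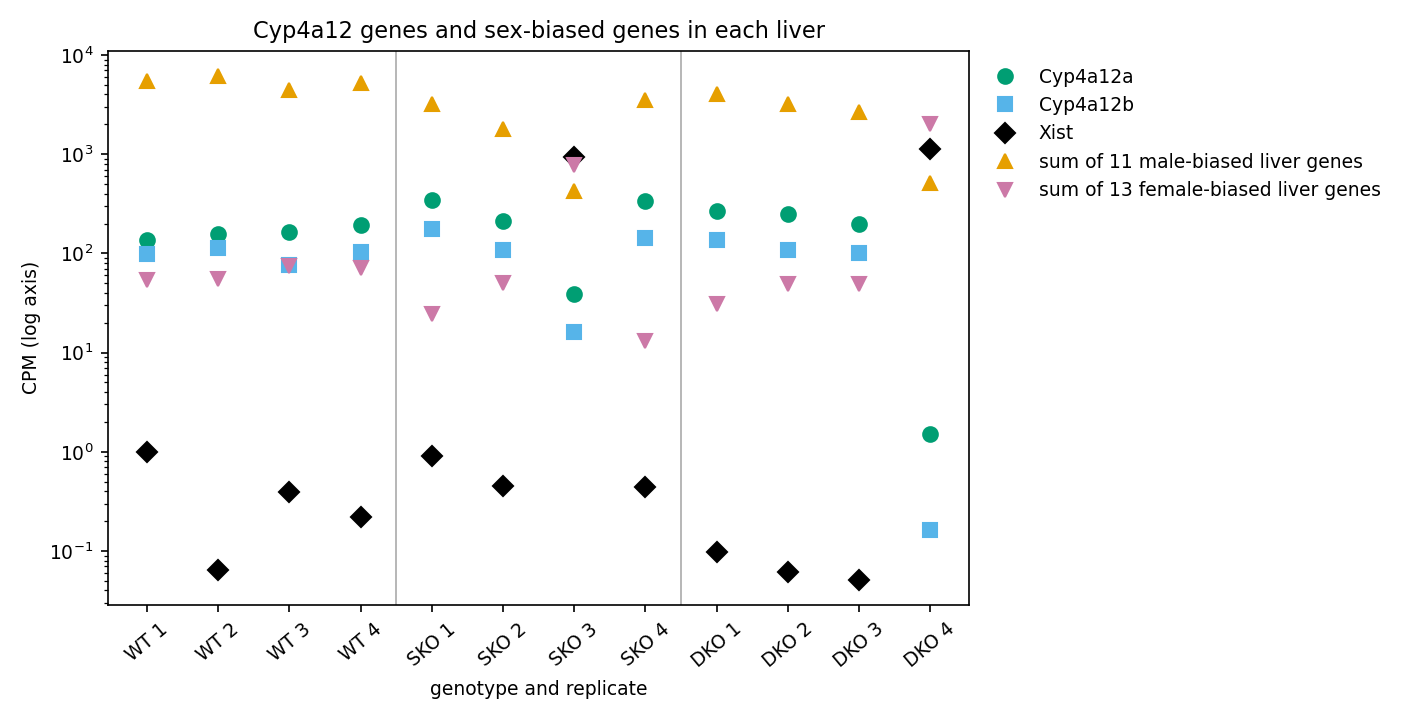
CPM (log axis) of Cyp4a12a, Cyp4a12b, Xist and the sums of 11 male-biased and 13 female-biased liver genes in each of the 12 livers, with grey lines between genotypes. In SKO 3 and DKO 4, the livers with Xist counts, the Cyp4a12 genes and the male-biased sum are at their lowest of the genotype and the female-biased sum is at its highest.

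The 3 Cyp4f members, of a family that acts on leukotriene B4, were lower than in WT livers or were not called. Cyp4f genes outside the members are given further below, and some of these were called higher in part of the settings. Cyp4f14 (ENSMUSG00000024292, chromosome 17 from 33124044 to 33136316, minus strand), the main leukotriene B4 omega-hydroxylase of mouse liver, was at 70.8, 85.9, 112 and 90.4 CPM in WT and 20.3, 12.8, 20.3 and 21.2 in SKO livers. It fell 4.77-fold without any overlap (log2 fold change −2.25 ± 0.19, adjusted p = 9.5e-06), the largest difference between SKO and WT livers among the 10 genes. In DKO livers it was at 32.9, 19.6, 25.3 and 210.3 CPM. The first 3 DKO livers were below every WT liver and replicate 4 was above every WT liver. The log2 fold change of DKO against WT was −0.30 ± 0.68 (adjusted p = 0.807) with all livers and −1.78 ± 0.20 (adjusted p = 5.03e-05) without replicate 4.

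Cyp4f15 (ENSMUSG00000073424, chromosome 17 from 32904601 to 32922326, plus strand), the gene closest to it in sequence, was at 169, 203, 226 and 225 CPM in WT livers, 124, 116, 89.9 and 57.8 in SKO livers and 93.1, 105, 100.4 and 242 in DKO livers. It was 2.09-fold lower in SKO than in WT livers (log2 fold change −1.07 ± 0.22, adjusted p = 0.00287), and each SKO liver was below each WT liver. As for Cyp4f14, DKO replicate 4 was the highest of all livers, and the call against WT depended on it (adjusted p = 0.216 with it, and log2 fold change −1.04, adjusted p = 8.57e-05, without it). Cyp4f13 (ENSMUSG00000024055, chromosome 17 from 33143662 to 33166376, minus strand) was at 79.3, 89.7, 112 and 95.2 CPM in WT livers, 67.6, 82.8, 71.5 and 64.9 in SKO livers and 80.3, 74.3, 71.4 and 89.5 in DKO livers. The genotypes overlapped, and the SKO value missed the threshold narrowly (log2 fold change −0.37 ± 0.13, adjusted p = 0.0519), with adjusted p between 0.0259 and 0.145 over the alternative settings. Its difference in DKO livers was −0.24 (adjusted p = 0.265).

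Cyp4v3 (ENSMUSG00000079057, chromosome 8 from 45757981 to 45786253, minus strand), the single member outside the Cyp4a and Cyp4f families, was at 354, 398, 317 and 429 CPM in WT livers, 222, 163, 182 and 216 in SKO livers and 201, 217, 179 and 303 in DKO livers. Every KO liver was below every WT liver. It was 1.89-fold lower in SKO (log2 fold change −0.92 ± 0.15, adjusted p = 0.000614) and 1.65-fold lower in DKO livers (log2 fold change −0.72 ± 0.18, adjusted p = 0.0388). It was the 1 gene of the 10 called in DKO against WT with all livers, and the call was lost when any one liver other than DKO replicate 4 was left out (adjusted p of 0.0562 to 0.107), while without DKO replicate 4 the adjusted p was 0.000339.

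Over the 10 genes, all of which passed the filter on low counts, 3 were called higher and 3 lower in SKO than in WT livers, at an adjusted p under 0.05. Of the 14261 genes tested in this comparison 16.7% were called higher and 15.4% lower. The median log2 fold change of the members was 0.32, beside 0.03 over all genes. In DKO against WT, 0 members were higher and 1 was lower, where 6.06% and 4.39% of 14448 genes were called. At an unadjusted p under 0.05 the members gave the same counts, 0 and 1, beside 2399 and 1849 genes in all, and DESeq2 called 1 member of 2635 genes called in this comparison. Without DKO replicate 4, 4 members were higher (Cyp4a10, Cyp4a14, Cyp4a32 and Cyp4a12a) and 3 lower (Cyp4f14, Cyp4f15 and Cyp4v3), where the background was 18.4% and 17.5% of 14634 genes. Both KO genotypes were set against 1 shared set of WT livers, so likeness between these comparisons is partly built in.

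**Figure D4:**
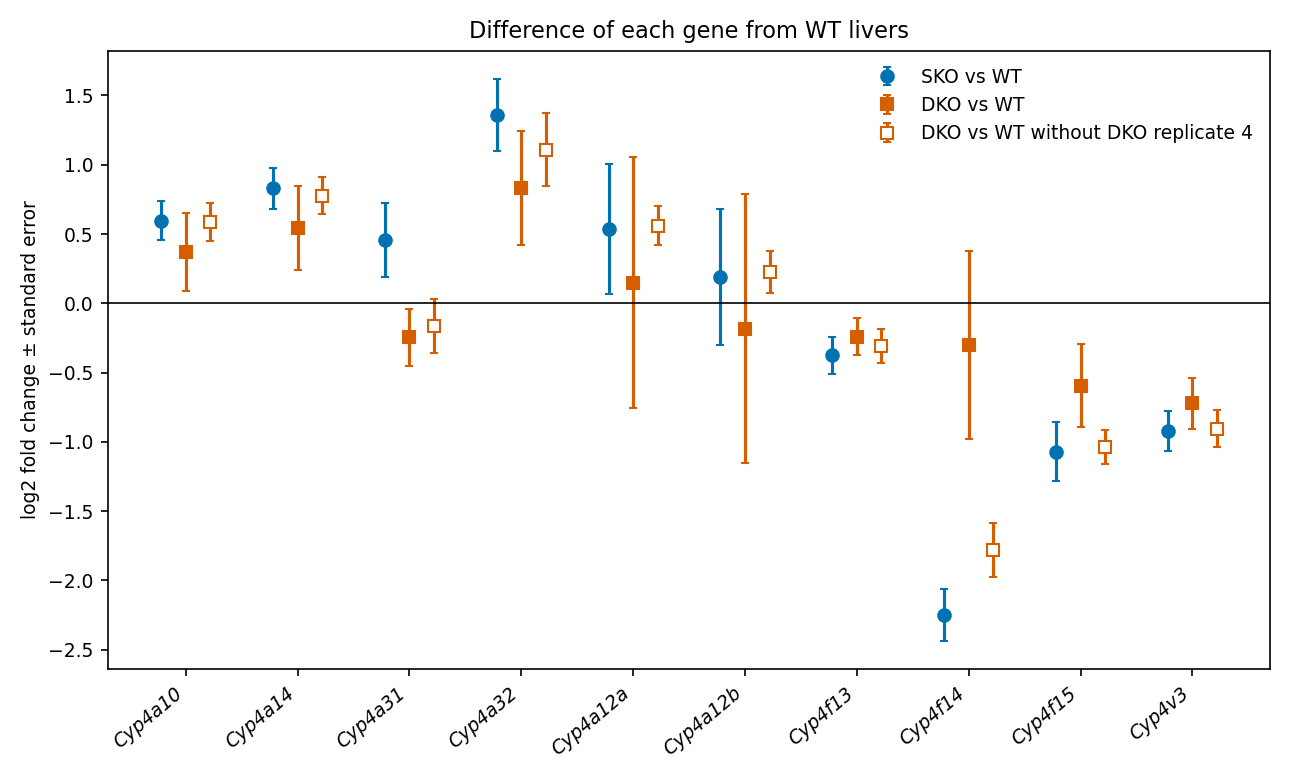
Log2 fold change against WT livers, with its standard error, of each Cyp4 gene in SKO livers (circles), in all 4 DKO livers (filled squares) and in DKO livers without replicate 4 (open squares). Without replicate 4 the DKO errors shrink for the Cyp4a12 genes and for Cyp4f14, whose log2 fold change goes from −0.30 to −1.78.

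The comparison of DKO with SKO livers addresses the loss of Atf3 in livers that lack Cpt2, and no Cyp4 gene passed the test in it. Atf3 itself did not pass either (log2 fold change −1.91 ± 0.72, adjusted p = 0.701, and −1.51 ± 0.37, adjusted p = 0.25, without DKO replicate 4). DKO replicates 1 to 3 had more Atf3 reads than any WT liver (log2 fold change of DKO against WT without replicate 4 2.77, adjusted p = 2.74e-05), and whether these come from the deleted part cannot be told. Of 14363 genes tested, 0.00696% were called higher and 0.0139% lower. Among the members 0 were called in either direction by edgeR or by DESeq2, which gave Cyp4f14 no adjusted value. At an unadjusted p under 0.05, 1 was higher (Cyp4f14, log2 fold change 1.98 ± 0.70, adjusted p = 0.664) and 1 lower (Cyp4a31, −0.70 ± 0.31, adjusted p = 0.75), beside 590 and 342 genes in all. The Cyp4f14 difference rested on DKO replicate 4, without which it was 0.47 ± 0.22 (adjusted p = 0.705). Without that liver 0.0617% of 14589 genes were called higher and 0.0411% lower, and the count of members stayed at 0, as it did without both livers with Xist counts. For the abundant genes the estimates were then close to 0, with −0.06 ± 0.20 for Cyp4a14 and −0.01 ± 0.19 for Cyp4a10 on the log2 scale. A value that misses the threshold does not show that the genotypes are alike.

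The steps around omega-hydroxylation were followed through lists of genes, which were chosen from general knowledge with earlier results of these data known. In DKO against SKO livers 0 genes of any list were called by edgeR, and DESeq2 called 1, the fatty acid-binding protein gene Fabp4 of the PPARα list (log2 fold change −1.56, adjusted p = 0.0314 by DESeq2 and 0.454 by edgeR). Of 21 PPARα targets 19 lay below 0 and 2 above in this comparison (median −0.25, and −0.22 without DKO replicate 4). Of 14 peroxisomal genes 11 lay below 0 and 3 above (median −0.39, and −0.33 without that liver). The median over all genes was 0.009, and the shared direction within these lists was not tested. Electrons reach microsomal P450 enzymes from the reductase Por and from the cytochrome b5 system. Of 5 such genes tested, edgeR called 2 lower in SKO than in WT livers and 0 higher, where 15.4% and 16.7% of all genes were called. In DKO against WT livers 0 were called with all livers and 2 were lower without DKO replicate 4 (Cyb5r3, −0.96, adjusted p = 3.43e-05, and Cyb5b, −0.68, adjusted p = 0.000658). Over all genes, 17.5% were called lower without that liver. Cyb5r3, the cytochrome b5 reductase, was at 238, 232, 241 and 249 CPM in WT and 148, 138, 125 and 137 in SKO livers (log2 fold change −0.79, adjusted p = 0.00028), and the outer mitochondrial membrane form Cyb5b fell by 0.52 on the log2 scale (adjusted p = 0.0101, and 0.156 with all 12 livers in the fit). Por was at 962 ± 211 CPM (SD over 4 livers) in WT livers, 1402 ± 338 in SKO livers and 876 ± 136 in DKO livers (adjusted p = 0.0583 for SKO against WT). Por was close to the threshold, with an adjusted p of 0.036 by DESeq2, which called it higher, and of 0.0228 to 0.173 by edgeR when 1 liver was left out.

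The next step is oxidation of the omega-alcohol to the acid. Of 9 alcohol and aldehyde dehydrogenase genes tested, 1 was higher and 4 were lower in SKO than in WT livers, where 16.7% and 15.4% of all genes were called. The median log2 fold change of these 9 genes was −0.63, beside 0.03 over all genes. Aldh3a2, the microsomal fatty aldehyde dehydrogenase that acts on long-chain aldehydes, rose from 561, 616, 681 and 715 CPM in WT to 2570.2, 2148, 2166 and 2072 in SKO livers (log2 fold change 1.82, adjusted p = 6.4e-06). It was at 1385, 2045, 1680.4 and 819 CPM in DKO livers, all above WT (1.21, adjusted p = 0.022). Adh4, an alcohol dehydrogenase with activity on omega-hydroxy fatty acids, fell from 86.1 ± 10.0 to 23.9 ± 2.12 CPM in SKO livers (−1.83, adjusted p = 3.09e-06) and to 31.8 ± 17.5 CPM in DKO livers (−1.43, adjusted p = 0.0244). In DKO against WT livers this list gave 1 gene higher and 1 lower with all livers, where 6.06% and 4.39% of all genes were called. Without replicate 4 it gave 1 higher and 5 lower, where 18.4% and 17.5% of all genes were called. In that fit Aldh1a1 was at −1.24 (adjusted p = 6.16e-05), Adh5 at −0.62 (adjusted p = 0.00132) and Aldh2 at −0.52 (adjusted p = 0.00589). With all livers as the base, the call of Aldh3a2 was lost when any one liver other than DKO replicate 4 was left out (adjusted p up to 0.0753), and that of Adh4 when any one other than DKO replicate 4 and WT replicate 3 was (up to 0.0806). Adh5 (−0.67), Aldh1a1 (−1.17) and Aldh2 (−0.63) were also lower in SKO livers, with adjusted p of 0.00131, 0.00131 and 0.0113.

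Most genes of the peroxisomal step rose in SKO livers. Of 14 genes of dicarboxylic acid import and peroxisomal beta-oxidation, all tested, 9 were higher and 1 lower in SKO than in WT livers (median log2 fold change 0.77). Over all genes, 16.7% were called higher and 15.4% lower there. In DKO livers 2 of the 14 were higher and 0 lower, where 6.06% and 4.39% of all genes were called. Without DKO replicate 4, 7 were higher and 1 lower, where 18.4% and 17.5% of all genes were called. Ehhadh, the bifunctional enzyme needed for chain shortening of dicarboxylic acids, was at 1705, 2246, 978 and 1641 CPM in WT and 12558, 11119, 9435 and 9994 in SKO livers (log2 fold change 2.73, adjusted p = 1.37e-05). In DKO livers it was at 7793, 10142, 6942 and 983 CPM, with replicate 4 back in the WT range. The thiolase Acaa1b (2.24, adjusted p = 1.42e-05) and the peroxisome proliferation factor Pex11a (2.21, adjusted p = 5.46e-06) rose too in SKO livers.

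**Figure D5:**
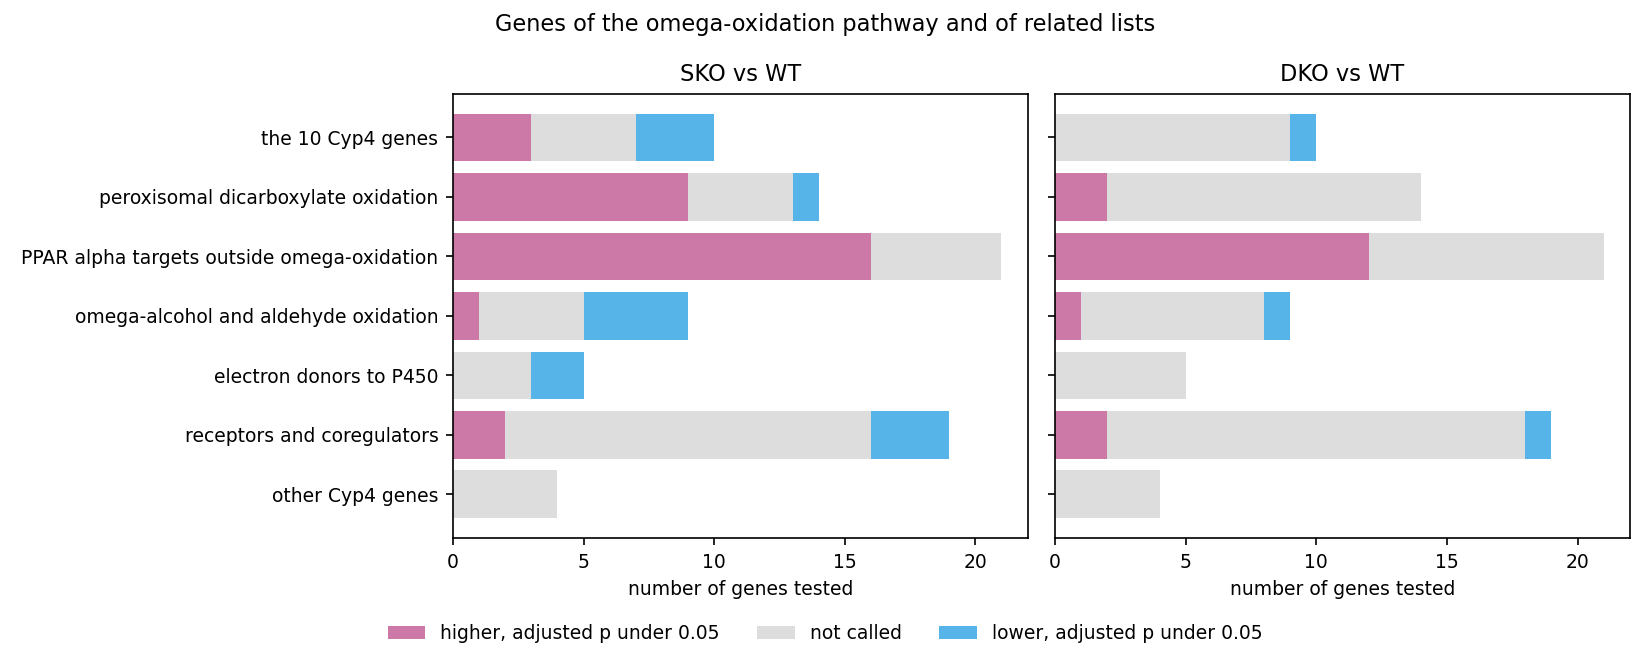
Number of genes tested in each list (bar length) that were called higher (pink), not called (grey) or called lower (blue) at an adjusted p under 0.05 in SKO (left) and DKO livers (right) against WT. In SKO livers 9 of 14 peroxisomal genes and 16 of 21 other PPARα targets were higher, beside 3 of the 10 Cyp4 genes and 16.7% of all genes tested.

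PPARα targets outside the omega-oxidation route gave the size that the Cyp4a changes can be set beside. Of 21 such genes, 16 were higher and 0 lower in SKO livers, with a median log2 fold change of 1.76, and 12 were higher in DKO livers (6 to 14 over the alternative settings), with a median of 1.14. Leaving out DKO replicate 4 gave 14 higher and 1 lower. The shares of all genes called in these comparisons are those given above for the peroxisomal genes. The pyruvate dehydrogenase kinase gene Pdk4 was at 6.82, 5.73, 12.6 and 6.81 CPM in WT and 806, 693, 926 and 515 in SKO livers (log2 fold change 6.54, adjusted p = 2.88e-07). The lipid droplet genes Cidec (4.34, adjusted p = 2.88e-07) and Plin2 (3.15, adjusted p = 2.36e-06) and the thioesterase Acot1 (3.39, adjusted p = 1.75e-06) rose as well. These genes were named for the smallest p of their list in SKO against WT livers, which favours large changes. Their log2 fold changes exceeded that of Cyp4a14 (0.83). The CPM of Cyp4a14 in WT livers was 6842 or more, and the part of this level in the size of its change was not tested. In DKO replicate 4 Pdk4 was at 71.0 CPM, Cidec at 32.8 and Plin2 at 1486 CPM, below all other KO livers. The receptor gene Ppara itself was at 220.1 ± 43.7, 255 ± 79.7 and 182 ± 39.4 CPM (SD over 4 livers) in the WT, SKO and DKO genotypes and was not called (log2 fold change 0.23 ± 0.22, adjusted p = 0.476). Of 19 receptors and coregulators, 2 were higher and 3 lower in SKO livers, where 16.7% and 15.4% of all genes were called. Pparg, the related receptor of fat storage, rose from 8.08 ± 0.577 to 22.3 ± 2.18 CPM (1.48, adjusted p = 1.95e-05), and Rxrb, which encodes a partner of these receptors, rose by 0.95 (adjusted p = 0.00314). The growth hormone receptor gene Ghr (−1.32, adjusted p = 0.000101) and the corepressor gene Nr0b2 (−4.93, adjusted p = 0.000331) were lower. Nr0b2 had 59, 8, 4 and 2 counts in SKO livers, and without SKO replicate 1 its log2 fold change was −7.01.

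Of the 10 remaining genes of the Cyp4 family, only 4 had enough counts to be tested, and edgeR called 0 in SKO or DKO against WT with all livers, where 2 (Cyp4f16 and Cyp4f17) and 2 (Cyp4f17 and Cyp4f39) had an unadjusted p under 0.05 and a higher mean. DESeq2 called Cyp4f17 higher in DKO livers (log2 fold change 0.85, adjusted p = 0.0225) and none of them in SKO livers, where edgeR called Cyp4f17 without SKO replicate 2 (adjusted p = 0.00554) and Cyp4f16 without SKO replicate 1 (adjusted p = 0.0198), and edgeR without a filter on low counts called 1 of the list higher in each comparison with WT. Cyp4f17 was at 22, 28.1, 17.7 and 22.5 CPM in WT livers, 38.2, 17.4, 39.2 and 33.4 in SKO livers and 55.3, 45.7, 41.3 and 21.3 in DKO livers. Without DKO replicate 4, Cyp4f17 (1.08, adjusted p = 0.000304) and Cyp4f39 (1.46, adjusted p = 0.0312) were called higher in DKO livers, where 18.4% of all genes were. Of 20 genes that start within 200 kb of a Cyp4a member, 3 were tested in some comparison and 0 were called.

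Genes with a course across the 12 livers most like that of a member were sought among 13904 genes tested in all comparisons, by Pearson's r of log2 CPM. The points share genotypes and the stray DKO replicate 4, so r is a description of these libraries. For Cyp4a14 the 5 closest were Myo1c, Tatdn2, Chrna2, Usp22 and Cep170b, with r from 0.960 to 0.971. After the genotype means were taken out and DKO replicate 4 was left out, their r fell to between 0.469 and 0.861. Cyp4a10 had r = 0.953 with Cyp4a14, and 0.559 within genotypes without DKO replicate 4. For Cyp4a12a the closest gene was Cyp4a12b (r = 0.993, and 0.973 within genotypes without DKO replicate 4), followed by Zfp664, Nat8f5, Omd and Asns, which had 0.661, 0.959, 0.852 and 0.728 on that last measure. SKO replicate 3, with its low Cyp4a12a, is still among those livers. For Cyp4f14 the first 4 were Mbl2, Car3, Fras1 and Nrn1 (r from 0.982 to 0.991, and 0.716 to 0.833 within genotypes without DKO replicate 4). Cyp4f14 and Cyp4a14 had r = −0.933 over the 12 livers and 0.03 within genotypes without DKO replicate 4.

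Other cell types were counted through their markers, since whole liver was sequenced. Over all genes tested, 16.7% were called higher and 15.4% lower in SKO than in WT livers. Without DKO replicate 4, 18.4% were called higher and 17.5% lower in DKO than in WT livers. Of 6 hepatocyte markers tested, 3 were lower and 0 higher in SKO than in WT livers, and their sum was 70657 to 88447 CPM in WT livers, 37814 to 65911 in SKO livers and 40679 to 91542 in DKO livers, the highest being DKO replicate 4. Kidney proximal tubule markers, of interest because that tissue also expresses Cyp4 genes, summed to at most 1.51 CPM in any liver, with Slc34a1, Slc22a6 and Umod at no more than 3 counts throughout. Of 6 macrophage markers, 1 was higher in SKO livers (Cd68, 2.28, adjusted p = 0.000107), and the sums were 155 to 308 CPM in WT livers, 155 to 296 in SKO livers and 101, 145, 146 and 335 in DKO replicates 1 to 4. The first 3 DKO livers were thus below every WT liver, and without replicate 4, 4 of the 6 macrophage markers were called lower and 1 higher in DKO than in WT livers (median log2 fold change −0.96). Of 6 stellate cell markers 1 was higher in SKO livers (Dcn, 0.61, adjusted p = 0.0063), with sums of 164 to 195, 219 to 314 and 205 to 268 CPM. Of 6 endothelial markers and 1 tested neutrophil marker 0 were called, with sums of 153 to 333 and 2.18 to 5.10 CPM over all livers. Of 4 cholangiocyte markers tested 2 were lower in SKO livers (Spp1, −1.44, and Sox9, −1.87), with sums of 28.0 to 33.5 CPM in WT livers, 7.37 to 14.3 in SKO livers and 9.63 to 31.7 in DKO livers. The hepatocyte, stellate, cholangiocyte and, in DKO replicates 1 to 3, macrophage sums moved with genotype, and their part in the changes of the Cyp4 genes was not tested.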

How the data were processed

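RNA of 12 fasted livers was sequenced. The authors deposited raw read counts per gene and FPKM values (read counts divided by gene length and a scaled library size). The submitters' processing notes name HISAT2, GRCm38 and mm10, whereas the coordinates in the count table are those of GRCm39, and the counting program is not given in the sources used here. The authors also deposited fold changes and p-values of their own comparisons, which were not used. Groups were taken from the labels.

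Counts were tested in R 4.3.3 with edgeR 4.0.16 (filterByExpr, TMM, quasi-likelihood fit on the 8 livers of each pair), with Benjamini-Hochberg adjustment over all genes tested and a threshold of 0.05. The standard error is the log2 fold change divided by the root of the F statistic. CPM were scaled over all 12 livers, and likeness used log2 CPM with a prior count of 2. The code was tested on simulated data. Alternatives were RLE scaling, no filter, DESeq2 1.42.0, all 12 livers in 1 fit, a replicate block and leaving out livers.

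The members and lists were chosen with earlier results of these data known. Named were all members, the targeted and sex check genes, the list genes with the smallest p (up to 4 per list in SKO against WT and up to 2 in DKO against SKO), and the 5 genes most like Cyp4a14, Cyp4a12a and Cyp4f14. Within each genotype no liver was a copy of another (18 pairs), and livers of different genotypes were not compared in this check. A few genes that this rule names are not reported here.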

Additional observations from a re-analysis of the deposited data

Results flagged for a closer look

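Of 30 sets of 4 livers examined (10 genes in 3 genotypes), 4 held a value farther from the others than Dixon's 95% limit for 4 values, where chance gives about 1.5. Cyp4f14 was at 210.3 CPM in DKO replicate 4 against 19.6 to 32.9 in the other DKO livers. Cyp4f15 was at 242 CPM in the same liver against 93.1 to 105. Cyp4f14 was at 12.8 CPM in SKO replicate 2 against 20.3 to 21.2 in the other SKO livers, and Cyp4a31 was at 50.8 CPM in WT replicate 3 against 75.2 to 78.9 in the other WT livers.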

How the results depend on the processing

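In SKO against WT livers, 4576 genes and 6 members were called, and every alternative stayed within 1.5 times of these counts (3617 to 4856 genes and 5 to 8 members). In DKO against WT livers 1510 genes were called, DESeq2 called 2635, the replicate block 691, and fits that left out 1 liver 244 to 5253, with 0 to 7 members in place of 1. The highest of these counts came without DKO replicate 4. In DKO against SKO livers 3 genes were called, against 35 without a filter, 97 with DESeq2, 0 with the replicate block, 0 to 15 when 1 liver was left out and 21 without both livers with Xist counts. The number of members called was 0 throughout. Same-numbered livers of different genotypes did not deviate together (r from −0.34 to 0.0887 over 12 pairs, 0 above 0.1), so the numbers do not pair the livers and the block is given only here.

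Changes of sign were seen in members that were not called. When 1 liver was left out, the log2 fold change in SKO against WT livers ran from −0.134 to 0.553 for Cyp4a12b, and in DKO against WT livers from −0.112 to 0.559 for Cyp4a12a (−0.0453 without DKO replicate 2), from −0.497 to 0.228 for Cyp4a12b and from −1.78 to 0.00931 for Cyp4f14. In DKO against SKO livers it ran from −0.736 to 0.0296 for Cyp4a12a and from −0.731 to 0.0455 for Cyp4a12b. With the replicate block Cyp4a12b was at −0.175 in SKO and Cyp4a12a at −0.336 in DKO against WT livers. Without both livers with Xist counts Cyp4f15 was at −0.0126 and Cyp4v3 at −0.0193 in DKO against SKO livers. The cause was not tested. For comparisons with WT livers, leaving out both of these livers is the same as leaving out the 1 that the comparison holds. Depth limits Cyp4a12b in DKO replicate 4, at 3 counts.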
